A study of Mus musculus with 6 samples.

Results

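The genes described here are the 4 MiT/TFE transcription factor genes, Mitf, Tfeb, Tfe3 and Tfec, and 5 genes of the folliculin-Rag nutrient-sensing arm, Flcn, Fnip1, Fnip2, Rragc and Rragd. They were taken by symbol, each symbol matched 1 Ensembl identifier, and all 9 were among the 12767 genes tested out of 46603 in the tables. Bulk RNA sequencing profiled bone marrow-derived macrophages of C57BL/6/J mice aged 7 weeks, grown with 20% L929-conditioned medium, a source of macrophage growth factor. At day 6 the cells were replated, and 6 h later 3 cultures received medium conditioned by cancer cells with its lipids (with lipids) and 3 received such medium lacking lipids (without lipids). No genetic change is named for either group, and no group received unconditioned medium among the libraries used here. The sources used here do not name the cancer line, how its medium was freed of lipids or the length of exposure, nor do they say whether mice were pooled.

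MiT/TFE proteins are basic helix-loop-helix leucine zipper factors that bind E-boxes in the promoters of lysosomal and autophagy genes, a set called the CLEAR network. At the surface of nutrient-replete lysosomes, folliculin and its partners Fnip1 and Fnip2 act as a GTPase-activating complex for RagC and RagD, and the Rag heterodimer then presents TFEB and TFE3 to the kinase mTORC1, whose phosphorylation keeps them in the cytoplasm. When nutrients are short or lysosomes are stressed the factors enter the nucleus. Rragd and other genes of the arm are themselves known targets of the factors, a feedback loop. In macrophages and osteoclasts these factors are known for lysosome formation and inflammatory gene control, and Tfec is known as a macrophage-restricted member of the family in mice. RNA counts show transcript levels and not where a protein sits.

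Promoter sequences are shown for the 2 paralog pairs that hold the 3 called genes, since the E-box CACGTG is the core of the site that the factors bind. They are RefSeq windows on build GRCm38.p6, from 250 bases before to 50 bases after the annotated start, written 5′ to 3′ along the gene, with CACGTG in capitals. Rragc is shown as chr4:123917183-123917482 (plus strand), Rragd as chr4:32982748-32983047 (plus strand), Fnip1 as chr11:54437929-54438228 (plus strand) and Fnip2 as chr3:79567630-79567929 (minus strand).
Rragc: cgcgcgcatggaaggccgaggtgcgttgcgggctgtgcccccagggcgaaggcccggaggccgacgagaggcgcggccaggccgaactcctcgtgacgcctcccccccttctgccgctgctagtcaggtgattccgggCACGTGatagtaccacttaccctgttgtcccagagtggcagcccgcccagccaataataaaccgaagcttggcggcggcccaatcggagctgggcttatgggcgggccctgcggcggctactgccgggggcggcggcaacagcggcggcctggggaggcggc
Rragd: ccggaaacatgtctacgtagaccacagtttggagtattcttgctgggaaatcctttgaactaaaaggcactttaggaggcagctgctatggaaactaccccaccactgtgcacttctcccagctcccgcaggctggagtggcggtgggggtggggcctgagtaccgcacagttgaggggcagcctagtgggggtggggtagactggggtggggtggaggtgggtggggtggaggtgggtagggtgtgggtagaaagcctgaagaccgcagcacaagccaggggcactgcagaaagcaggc
Fnip1: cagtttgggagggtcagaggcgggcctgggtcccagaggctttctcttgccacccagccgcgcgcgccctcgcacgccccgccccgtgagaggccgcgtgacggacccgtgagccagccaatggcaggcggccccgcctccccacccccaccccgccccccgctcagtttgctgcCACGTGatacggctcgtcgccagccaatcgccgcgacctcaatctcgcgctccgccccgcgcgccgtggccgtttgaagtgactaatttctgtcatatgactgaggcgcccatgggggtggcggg
Fnip2: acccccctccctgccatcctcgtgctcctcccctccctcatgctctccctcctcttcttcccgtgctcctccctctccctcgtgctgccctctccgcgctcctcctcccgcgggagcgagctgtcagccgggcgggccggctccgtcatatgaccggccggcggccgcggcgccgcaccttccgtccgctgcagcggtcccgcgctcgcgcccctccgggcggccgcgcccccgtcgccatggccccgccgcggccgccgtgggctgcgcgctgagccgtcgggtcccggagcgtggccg
The Rragc window held 1 CACGTG beginning 112 bases before the start, and the Fnip1 window held 1 beginning 75 bases before it. The other 2 windows held none. The RefSeq table gave 14 windows for the 9 genes, several genes having more than 1 start, and only these 2 windows held the hexamer, which reads the same on both strands. Of all 32851 promoter windows of 300 bases, 7.15% held CACGTG. The longer TCACGTG, searched on both strands and containing the hexamer, was in the same 2 genes and in 3.77% of all windows. A match describes these letters only, and the windows do not reach further regulatory sequence.

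Libraries held 19429022 to 25323053 counts, and a gene with no count could have had up to 0.115 to 0.159 CPM (counts scaled to 1000000 per library) by the limit of 3 counts, which covers counting error only. Each of the 9 genes had at least 407 counts in every library. Levels are given as CPM scaled between libraries by trimmed mean of M-values (TMM). The labels do not say that the replicates were separate mice, so p-values reflect library-to-library spread, which may be technical. Replicate 1 without lipids stood apart. It differed from the other 2 libraries of its group by chi-square values of 13.1 and 19.9 per gene, against 7.78 between those 2 and 2.67 to 4.78 between libraries with lipids, where sampling noise gives about 1. Counts of called genes among the 9, the pathway lists and the CLEAR targets are given with it and with it dropped.

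The Rag GTPase genes Rragd and Rragc and the folliculin partner gene Fnip2 had lower transcript levels with lipids. Changes are log2 fold changes, with lipids over without lipids, from edgeR's quasi-likelihood test with Benjamini-Hochberg adjustment over all genes tested, called at an adjusted p of 0.05. By that rule 3 of the 9 genes were lower and 0 higher, where 6.87% of all genes tested were lower and 4.58% higher (11.5% either way). In counts that is 877 lower and 585 higher, and library totals in place of TMM factors turned the split to 596 lower and 1241 higher. At an unadjusted p of 0.05, 5 were lower and 1 was higher, where 14.5% of all genes tested were lower and 12.1% higher (26.6% either way). DESeq2 called 5 lower and 0 higher, where it called 7.54% of its 12024 genes with an adjusted p lower and 5.32% higher. With replicate 1 without lipids dropped, 5 were lower and 0 higher, where 15.1% of 13039 genes were lower and 12.0% higher. None of the 4 transcription factor genes was called. The median change of the 9 genes was -0.27, against -0.0032 over all genes tested. In bulk RNA, fewer cells expressing a gene and less RNA per cell cannot be told apart.

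**Figure D1:**
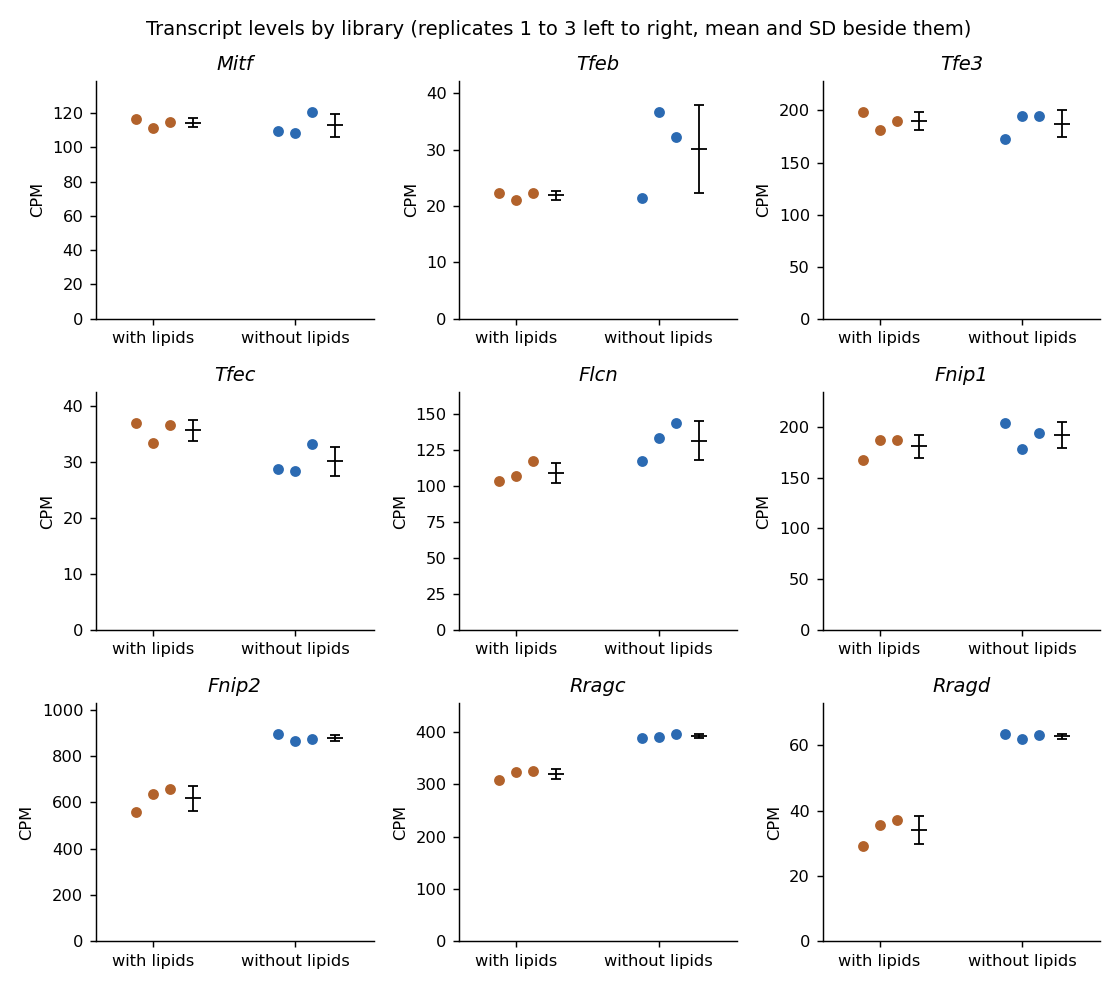
TMM-scaled CPM of each of the 9 genes (vertical axis, from 0) in the 3 libraries with lipids (left, orange) and the 3 without lipids (right, blue), with the mean and SD beside each group. Rragd, Rragc and Fnip2 have no overlap between groups, Tfec lies higher with lipids in all 3 libraries, and Tfeb without lipids ranges from 21.4 to 36.7 CPM.

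Rragd encodes RagD, the Rag GTPase that pairs with RagA or RagB in place of RagC. It lies on chromosome 4 (32983037 to 33022180, plus strand, GRCm38). It stood at 29.3, 35.7 and 37.1 CPM with lipids, against 63.4, 61.9 and 63.2 CPM without lipids. Every library with lipids lay well below every library without, and the 3 libraries without lipids were nearly equal. The log2 fold change was -0.885 (SE 0.087, 95% interval -1.08 to -0.69, edgeR adjusted p = 0.00011), 1.85-fold lower. This was the largest change of the 9, and 98.0% of all genes tested and 86.0% of called genes changed by less.

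Rragc encodes RagC, the more abundant of these paralogs per kb of exon. It lies on the same chromosome (123917446 to 123936997, plus strand) and stood at 309, 324 and 326 CPM with lipids, against 389, 392 and 396 CPM without lipids. The groups did not overlap, and within each group the libraries lay close together. The log2 fold change was -0.29 (SE 0.05, 95% interval -0.41 to -0.18, edgeR adjusted p = 0.00475). Its exons share 264 bases with 4930535I16Rik on the other strand, which had 0 counts in all 6 libraries against 45630 for Rragc, and no other member of the 9 overlaps another gene's exons in the annotation.

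Fnip2, one of the interchangeable partners through which folliculin acts, was the most abundant of the 9 in CPM, above 98.9% of genes tested. It lies on chromosome 3 (79455974 to 79567796, minus strand) and stood at 558, 637 and 660 CPM with lipids, against 895, 868 and 875 CPM without lipids. All libraries with lipids lay below all those without. The log2 fold change was -0.51 (SE 0.07, 95% interval -0.66 to -0.36, edgeR adjusted p = 0.00081). Its paralog Fnip1, on chromosome 11 (54438199 to 54518235, plus strand), stood at 168, 188 and 188 CPM with lipids, against 204, 178 and 194 CPM without lipids. The Fnip1 groups overlapped. Its log2 fold change was -0.09 (SE 0.07, 95% interval -0.24 to 0.07, edgeR adjusted p = 0.481).

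Flcn encodes folliculin, the GTPase-activating subunit and a tumour suppressor. It lies on chromosome 11 (59791408 to 59810016, minus strand) and stood at 103, 107 and 117 CPM with lipids, against 117, 134 and 144 CPM without lipids. The groups met at 117 CPM, where replicate 3 with lipids and replicate 1 without lipids lay. The log2 fold change of -0.27 (SE 0.08, 95% interval -0.45 to -0.09) did not pass the test (edgeR adjusted p = 0.0577). It passed when the deviating replicate 1 without lipids was dropped, at -0.34 (edgeR adjusted p = 0.0014), with DESeq2 (adjusted p = 0.0379) and with no filter (edgeR adjusted p = 0.00566). In the group with lipids, all 5 folliculin-Rag genes were lowest in replicate 1, and 4 of the 5 were highest in replicate 3. The 4 transcription factor genes were all lowest in replicate 2 and highest in replicate 1 there. Without lipids, 2 of the 5 folliculin-Rag genes were lowest in replicate 1 and 3 in replicate 2. The share of all genes with such an order was not computed.

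Among the factors, Mitf and Tfe3 differed least between groups. Mitf, the microphthalmia factor needed for osteoclasts and melanocytes, lies on chromosome 6 (97807052 to 98021349, plus strand). It stood at 116.7, 111.6 and 114.8 CPM with lipids, against 109.9, 108.5 and 120.7 CPM without lipids. The groups overlapped, and the log2 fold change was 0.02 (SE 0.06, 95% interval -0.12 to 0.15, edgeR adjusted p = 0.894). Tfe3, on chromosome X (7762560 to 7775202, plus strand), stood at 198.5, 181.5 and 189.8 CPM with lipids, against 172.2, 195.1 and 194.6 CPM without lipids. These groups overlapped as well, with a log2 fold change of 0.02 (SE 0.07, 95% interval -0.13 to 0.17, edgeR adjusted p = 0.882). The intervals bound any difference in these 2 genes and do not show that the levels are equal.

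Tfeb, the factor best known for lysosome and autophagy gene control, was the least abundant of the 9 with lipids. It lies on chromosome 17 (47737030 to 47792419, plus strand) and stood at 22.31, 20.97 and 22.29 CPM with lipids, against 21.42, 36.67 and 32.26 CPM without lipids. The libraries with lipids were nearly equal, while replicate 1 without lipids lay among them and the other 2 lay above. The log2 fold change was -0.46 (SE 0.16, 95% interval -0.81 to -0.12, edgeR adjusted p = 0.0833). Dropping replicate 1 without lipids gave -0.65 (edgeR adjusted p = 3.99e-05), and dropping replicate 2 there gave -0.30 (edgeR adjusted p = 0.327). It also passed with DESeq2 (adjusted p = 0.0308) and with no filter (edgeR adjusted p = 6.3e-05).

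Tfec was the member with the highest log2 fold change. It lies on chromosome 6 (16833373 to 16898441, minus strand) and stood at 37.01, 33.54 and 36.66 CPM with lipids, against 28.79, 28.45 and 33.23 CPM without lipids. The groups did not overlap, but replicate 2 with lipids and replicate 3 without lipids nearly met. Its log2 fold change of 0.24 (SE 0.08, 95% interval 0.06 to 0.43) did not pass the test (edgeR adjusted p = 0.0895). It passed with library totals in place of TMM factors, at 0.32 (edgeR adjusted p = 0.0292), and when replicate 3 without lipids was dropped, at 0.32 (edgeR adjusted p = 0.0241). Groups did not overlap for 4 of the 9 genes, 3 lower and 1 higher, where 15.8% of all genes tested were lower and 14.7% higher without overlap.

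**Figure D2:**
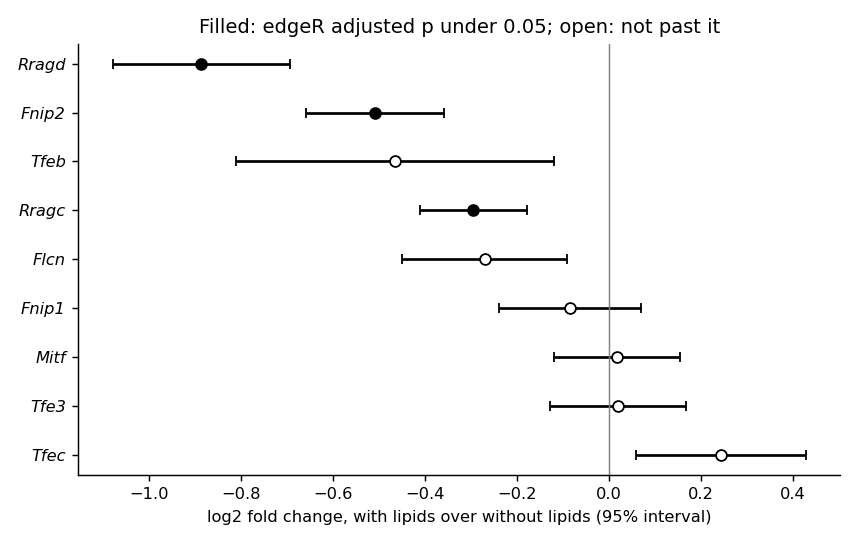
Log2 fold change of each of the 9 genes, with lipids over without lipids (horizontal axis), with its 95% interval. Filled points passed an adjusted p of 0.05. Rragd at -0.885, Fnip2 at -0.51 and Rragc at -0.29 are filled, and the intervals of Mitf, Tfe3 and Fnip1 include 0.

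Ratios between paralogs within a library do not depend on how libraries are scaled. Each level was divided by the merged exon length of the gene, and 4 ratios were tested by an exact two-sided permutation test of 3 against 3 libraries, whose smallest possible p is 0.1. For every 100 of Rragc, macrophages held 6.12, 7.10 and 7.35 of Rragd with lipids, against 10.5, 10.2 and 10.3 without lipids. All 3 ratios with lipids lay below those without. On the log2 scale the ratio averaged -3.87 ± 0.14 with lipids and -3.27 ± 0.02 without lipids (SD, n = 3 each), a difference of -0.60.

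Fnip2 stood at 283, 289 and 300 for every 100 of Fnip1 with lipids, against 373, 414 and 384 without lipids, so the ratios again did not overlap. The log2 ratio averaged 1.54 ± 0.04 with lipids and 1.96 ± 0.08 without lipids (SD, n = 3 each), a difference of -0.43. In the factor family, Tfec stood at 35.1, 33.3 and 35.4 for every 100 of Mitf with lipids, against 29.02, 29.05 and 30.5 without lipids, a log2 difference of 0.23. Tfeb stood at 18.4, 18.9 and 19.2 for every 100 of Tfe3 with lipids, against 20.3, 30.7 and 27.1 without lipids, a log2 difference of -0.45. Both pairs of groups were apart, though the Tfeb ratio of replicate 1 without lipids came close to those with lipids. Each of the 4 ratios gave an exact p of 0.1, also 0.1 after adjustment over the 4, so none can pass 0.05 in this design.

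**Figure D3:**
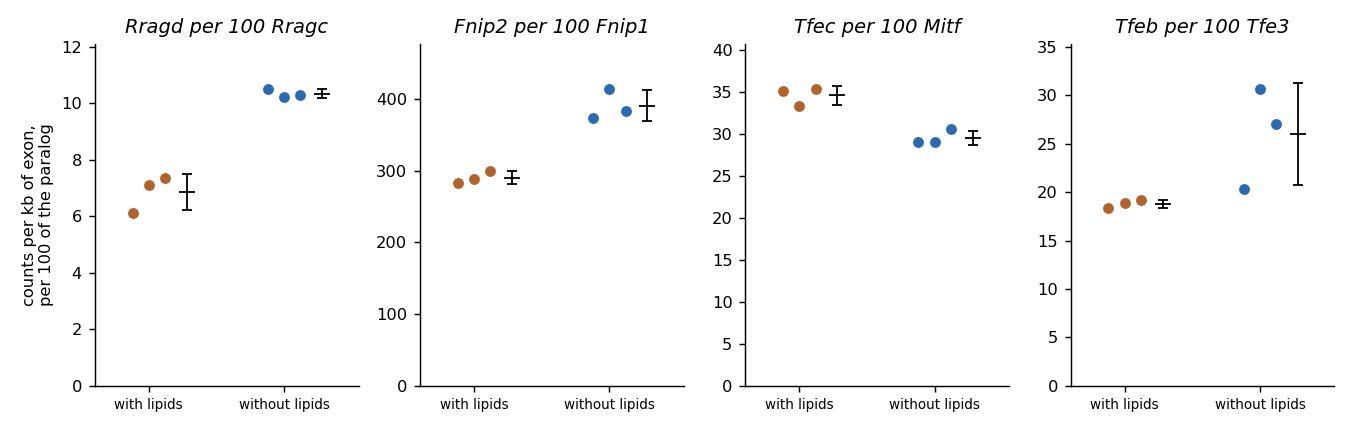
Ratio of each gene to its paralog within a library, from counts per kb of exon and given for every 100 of the paralog (vertical axis, from 0), in libraries with lipids (left) and without lipids (right), with the mean and SD. Rragd to Rragc and Fnip2 to Fnip1 are lower with lipids in all 3 libraries, Tfec to Mitf is higher, and Tfeb to Tfe3 spreads from 20.3 to 30.7 without lipids.

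Summed over the family per kb of exon, the 4 factors reached 49.2 ± 1.8 CPM per kb with lipids and 49.2 ± 3.5 CPM per kb without lipids (SD, n = 3 each), and the groups overlapped. Tfe3 held 41.7 ± 0.4% of that sum with lipids and 41.1 ± 0.9% without lipids, and Mitf held 37.5 ± 0.5% with lipids and 37.2 ± 2.1% without lipids. Tfec held 12.98 ± 0.28% with lipids and 10.97 ± 0.72% without lipids. Tfeb, the smallest share by exon length, held 7.83 ± 0.10% with lipids and 10.7 ± 2.3% without lipids, where its values were 8.35%, 12.9% and 10.9%. The Tfec shares did not overlap between groups, nor did the Tfeb shares. Using the mean length of annotated transcripts instead, the Tfeb share was 13.2% with lipids and 17.7% without lipids. The Tfec share was then 13.2% with lipids and 10.95% without lipids, so the order of Tfeb and Tfec depended on the length used. By that length the Tfe3 shares, 41.9% with lipids and 40.6% without lipids, did not overlap either.

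Ordered by level per kb of exon with lipids, Rragc came first at 95.8 ± 2.8 CPM per kb and Fnip2 second at 73.9 ± 6.4, followed by Fnip1 at 25.4 ± 1.6, Flcn at 25.2 ± 1.7, Tfe3 at 20.5 ± 0.9, Mitf at 18.5 ± 0.4, Rragd at 6.58 ± 0.81, Tfec at 6.39 ± 0.34 and Tfeb at 3.86 ± 0.14 (SD, n = 3). The libraries of Fnip1 and Flcn overlapped, as did those of Rragd and Tfec. Without lipids the order began with Rragc at 117 ± 1.0 CPM per kb and Fnip2 at 105 ± 1.7, then Flcn at 30.4 ± 3.1, Fnip1 at 27.0 ± 1.8, Tfe3 at 20.2 ± 1.4, Mitf at 18.2 ± 1.1, Rragd at 12.2 ± 0.2, Tfec at 5.39 ± 0.48 and Tfeb at 5.31 ± 1.4 (SD, n = 3). There, Flcn overlapped Fnip1, Tfe3 overlapped Mitf, and Tfec overlapped Tfeb. By exon length Rragd was thus clear of Tfec without lipids, while with lipids 1 Rragd library lay below the Tfec libraries and 2 above them. Merged exons measured 5173 bases for Rragd and 5594 for Tfec, against mean annotated transcripts of 3702.5 and 1617 bases. Places in the order can therefore differ with the length used, and the order by transcript length was not drawn up.

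For each of the 3 called genes, the protein-coding genes with the nearest profile over the 6 libraries were found by the root mean square difference of centred log2 CPM, among 9478 genes with a mean of at least 5 CPM. Nearest to Rragd were Cipc, a repressor of the circadian CLOCK protein, with a difference of 0.06, and the tyrosine kinase gene Src, with 0.08, where the median over candidates was 0.46. Nearest to Fnip2 were Samd8, a sphingomyelin synthase-related protein, at 0.04 and Gpr137b, a lysosomal membrane protein, at 0.05, with a median of 0.28. Nearest to Rragc were Tmem9 at 0.016 and Slfn2 at 0.018, with a median of 0.18. Cipc stood at 48.5, 57.6 and 61.2 CPM with lipids, against 110.5, 113.1 and 105.5 CPM without lipids, and Gpr137b at 228, 242 and 248 CPM with lipids, against 347, 334 and 316 CPM without lipids. With 3 libraries in each of 2 groups, likeness here mostly follows the group difference.

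Around the 9 genes, 65 further genes of nutrient sensing and of MiT/TFE control were examined in 5 lists, and 64 were tested. Of these, 3 were higher and 7 lower with lipids, 15.6% called where 11.5% of all genes tested were, with a median log2 fold change of -0.05. The counts changed when single libraries were dropped, and why was not tested. Dropping the libraries with lipids in turn gave 0 higher each time and 2, 0 and 1 lower. Over all genes those fits gave 263, 219 and 243 higher and 474, 423 and 488 lower, of 12932, 12938 and 13016 tested. Dropping replicate 2 without lipids gave 1 higher and 0 lower, where 244 of 13075 genes were higher and 482 lower. With replicate 1 without lipids dropped, 7 were higher and 18 lower, where 27.2% of all genes were called. Library totals in place of TMM factors gave 4 higher and 2 lower, where 9.72% of all genes were higher and 4.67% lower. Beside the counts given below for each list and the CLEAR targets, an unadjusted p of 0.05 gave 14.5% of all genes tested lower and 12.1% higher. DESeq2 called 7.54% of its genes lower and 5.32% higher.

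The Rag-Ragulator and mTORC1 list had 4 of 15 genes lower and 0 higher, 26.7% lower where 6.87% of all genes tested were (median -0.12, 6 lower and 0 higher at an unadjusted p of 0.05, 4 lower and 0 higher with DESeq2). The 4 were Rptor, the mTORC1 scaffold raptor, and 3 subunits of Ragulator, the complex that anchors Rag GTPases to lysosomes. Rptor stood at 73.2, 63.4 and 65.7 CPM with lipids, against 85.1, 93.1 and 82.4 CPM without lipids, a log2 fold change of -0.37 (edgeR adjusted p = 0.0097). Lamtor4 stood at 37.87, 35.74 and 35.96 CPM with lipids, against 40.2, 53.9 and 53.7 CPM without lipids, a log2 fold change of -0.43 (edgeR adjusted p = 0.0232). Both genes had no overlap between groups, with Lamtor4 nearest to overlap in replicate 1 without lipids. Lamtor1 changed by -0.29 (edgeR adjusted p = 0.0206) and Lamtor3 by -0.25 (edgeR adjusted p = 0.0215). The list had 0 genes called when replicate 2 or 3 with lipids, or replicate 2 without lipids, was dropped. Over all genes those fits gave 423 of 12938, 488 of 13016 and 482 of 13075 lower, and 219, 243 and 244 higher. The list had 2 lower with library totals, where 4.67% of all genes were lower. It also had 2 lower with replicate 1 with lipids dropped, where 474 of 12932 genes were lower. With replicate 1 without lipids dropped it had 7 lower, where 15.1% of all genes were lower. Dropping replicate 3 without lipids gave 1 higher beside 4 lower, where 649 of 12942 genes were higher and 866 lower. Lamtor1 and Rptor overlap genes on the other strand, Lrrc51 with 409 counts against 25880 and Rptoros with 2429 against 9836, and without a stated strand setting such reads cannot be told apart.

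The RefSeq windows of the 2 Ragulator genes Lamtor4 and Lamtor1 held the E-box and are shown around it, since they are the called nutrient-sensing genes whose windows had one. The stretch of Lamtor4 is chr5:138255345-138255400 and that of Lamtor1 is chr7:101905752-101905791, both on the plus strand of GRCm38.p6, with CACGTG in capitals.
Lamtor4: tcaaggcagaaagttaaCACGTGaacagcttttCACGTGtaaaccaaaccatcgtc
Lamtor1: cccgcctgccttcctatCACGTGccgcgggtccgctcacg
Lamtor4 held 2 copies, beginning 120 and 104 bases before the start, and Lamtor1 held 1, beginning 68 bases before it. Of the 65 nutrient-sensing genes, 53 were in the RefSeq table and 7 had a window with CACGTG.

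Among GATOR, KICSTOR and amino acid sensor genes, 3 of 16 were higher and 0 lower, where 4.58% of all genes tested were higher and 6.87% lower (median -0.01, 3 higher and 2 lower at an unadjusted p of 0.05, 2 higher and 0 lower with DESeq2). The sestrin gene Sesn1, a stress-induced inhibitor of mTORC1 signalling, stood at 239, 251 and 253 CPM with lipids, against 159, 160 and 219 CPM without lipids, a log2 fold change of 0.465 (edgeR adjusted p = 0.0193). Its relative Sesn3 changed by 0.51 (edgeR adjusted p = 0.0432) at no more than 5.42 CPM. Castor2, of the arginine-sensor family, stood at 71.4, 68.0 and 69.9 CPM with lipids, against 50.7, 57.7 and 58.7 CPM without lipids, a log2 fold change of 0.32 (edgeR adjusted p = 0.0139). All 3 genes were higher in every library with lipids, and 0 were called when any library with lipids was left out. Those fits gave 263, 219 and 243 genes higher and 474, 423 and 488 lower over all genes, of 12932, 12938 and 13016. The count for this list did not stay one-sided. With replicate 1 without lipids dropped, 3 were higher and 3 lower, where 12.0% of all genes were higher and 15.1% lower. Dropping replicate 2 without lipids gave 1 higher and 0 lower, where 244 of 13075 genes were higher and 482 lower. Dropping replicate 3 without lipids gave 3 higher and 1 lower, where 649 of 12942 genes were higher and 866 lower.

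Of 9 tested TSC and AMPK genes 0 were called by edgeR or DESeq2 with all libraries, and 2 were higher and 1 lower at an unadjusted p of 0.05 (median 0.06). Library totals gave 1 higher, where 9.72% of all genes were higher. Dropping replicate 1 without lipids gave 2 higher and 1 lower, where 12.0% of all genes were higher and 15.1% lower. Of 16 genes that act on the phosphorylation or location of the factors, 1 was lower and 0 higher, 6.25% lower and so near the 6.87% of all genes tested (median -0.01, 2 lower and 0 higher at an unadjusted p of 0.05, 1 lower and 0 higher with DESeq2). It was Map4k3, an amino acid-responsive kinase, at 96.1, 92.7 and 87.8 CPM with lipids, against 134, 114 and 102 CPM without lipids (log2 fold change -0.34, edgeR adjusted p = 0.0378). The groups did not overlap, and the call was lost with library totals and on dropping any 1 library with lipids, or replicate 2 without lipids. With replicate 1 without lipids dropped, 2 of the 16 were higher and 2 lower, near the 12.0% of all genes higher and 15.1% lower. With no filter 1 was higher and 1 lower, where 1009 of 22922 genes were higher and 1243 lower. In the list of ATG8 genes and folliculin-related partners, 2 of 8 were lower and 0 higher, 25.0% lower where 6.87% of all genes tested were (median -0.19, 6 lower and 0 higher at an unadjusted p of 0.05, 3 lower and 0 higher with DESeq2). They were Gabarapl1, an ATG8 protein, at -0.29 (edgeR adjusted p = 0.0299), and C9orf72, part of a complex related to folliculin, at -0.30 (edgeR adjusted p = 0.0215). This list had 0 called with library totals or when replicate 1 or 2 with lipids, or replicate 2 without lipids, was dropped. Over all genes, library totals gave 9.72% higher and 4.67% lower. Dropping those libraries gave 474 of 12932, 423 of 12938 and 482 of 13075 genes lower, and 263, 219 and 244 higher. The list had 1 lower when replicate 3 with lipids was dropped, where 488 of 13016 genes were lower. It had 1 lower too when replicate 3 without lipids was dropped, where 866 of 12942 genes were. It had 5 lower when replicate 1 without lipids was dropped, where 15.1% of all genes were lower.

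**Figure D4:**
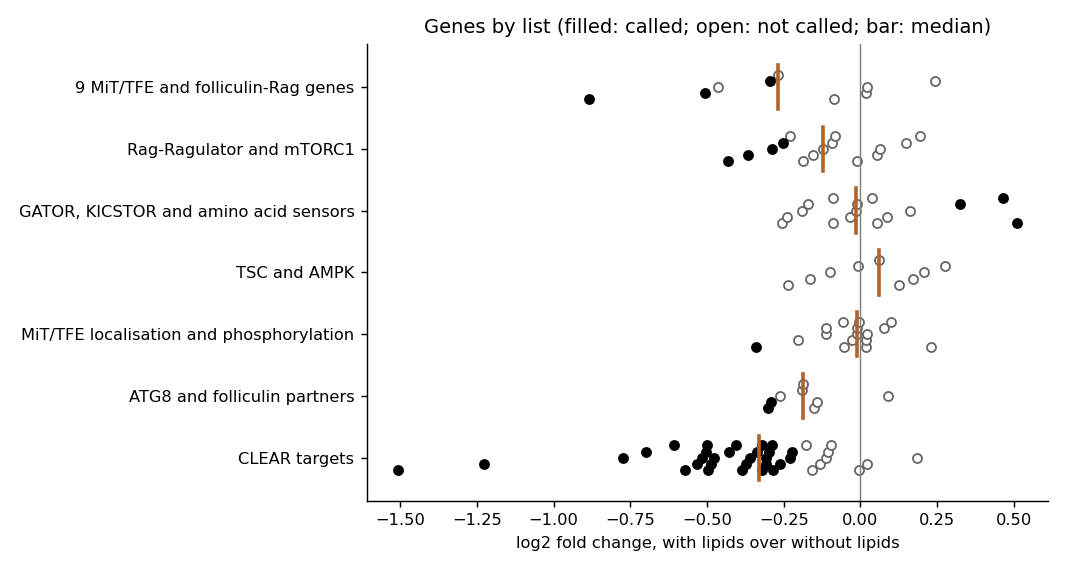
Log2 fold change of each tested gene, with lipids over without lipids (horizontal axis), by list, with filled points for genes past an adjusted p of 0.05 and a bar at the list's median. The CLEAR targets have a median of -0.33, the 9 genes of -0.27 and the Rag-Ragulator and mTORC1 list of -0.12, while the other lists lie between -0.19 and 0.06.

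Of 38 known CLEAR targets of TFEB and TFE3, 29 were lower with lipids and 0 higher, with a median log2 fold change of -0.33, 76.3% lower against 6.87% of all genes tested. At an unadjusted p of 0.05, 31 were lower and 0 higher, and DESeq2 called 29 lower and 0 higher. Many of these genes are lysosomal, and the lower level of lysosomal genes was known when the list was drawn up, so it is a description beside the 9 genes. The 4 with the smallest p were Atp6v0d2, a proton pump subunit, at -1.51, the glycoprotein gene Gpnmb at -1.23, Clcn7, the lysosomal chloride-proton exchanger, at -0.61 and Gla, alpha-galactosidase A, at -0.52 (edgeR adjusted p between 1.92e-06 and 0.000166). Clcn7 stood at 208, 204 and 216 CPM with lipids, against 305, 329 and 324 CPM without lipids, with no overlap. Of the 38 genes, 28 were in the RefSeq table and 15 had a window with CACGTG. The count of lower genes was 19 when replicate 2 with lipids was dropped, where 423 of 12938 genes were lower. It was 31 when replicate 1 without lipids was dropped, where 15.1% of all genes were lower.

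Markers set out for the labelled cell type were abundant. The 8 macrophage markers summed to 29000 to 29400 CPM with lipids and 29400 to 34200 CPM without lipids. Most of the sum was Lyz2, at 19630 to 19860 CPM with lipids and 20710 to 24750 CPM without lipids. On the log2 scale Itgam (0.56) and Fcgr1 (0.29) were higher and Cd68 (-0.55) lower. Of the 8, 2 were called higher and 1 lower, where 4.58% of all genes tested were higher and 6.87% lower. Mast cells and pigment cells, which depend on Mitf, left almost no signal. The 8 mast cell markers summed to 0.231 to 0.421 CPM with lipids and 0.211 to 0.506 CPM without lipids, with 6 at 0 counts, and the 6 pigment cell markers to 0.226 to 0.577 CPM with lipids and 0.368 to 0.478 CPM without lipids, with 5 at 0. The 8 osteoclast markers summed to 77.1 to 87.7 CPM with lipids and 83.7 to 93.6 CPM without lipids, with the calcitonin receptor gene Calcr at 0 and Oscar at no more than 0.159 CPM. Within that list Ctsk changed by -0.90 (edgeR adjusted p = 0.000964) and Acp5 by -0.76 (edgeR adjusted p = 0.0133). That is 2 of 5 tested lower and 0 higher, where 6.87% of all genes tested were lower and 4.58% higher. The other tested markers of the list, Mmp9 at -0.27, Dcstamp at -0.07 and Nfatc1 at 0.02, were not called. The part of osteoclast-type cells in the lower Rragd, Rragc and Fnip2 was not tested. The 6 epithelial and fibroblast markers summed to 94.2 to 101 CPM with lipids and 93.9 to 130 CPM without lipids, nearly all from the collagen genes Col1a1 and Col1a2, with Krt8 and Krt18 at 0, none was called, and their part was not tested. Neutrophil and lymphocyte markers, 6 each, summed to 0.452 to 0.562 and 0.136 to 0.515 CPM with lipids and to 0.637 to 0.895 and 0.0526 to 0.138 CPM without lipids.

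**Figure D5:**
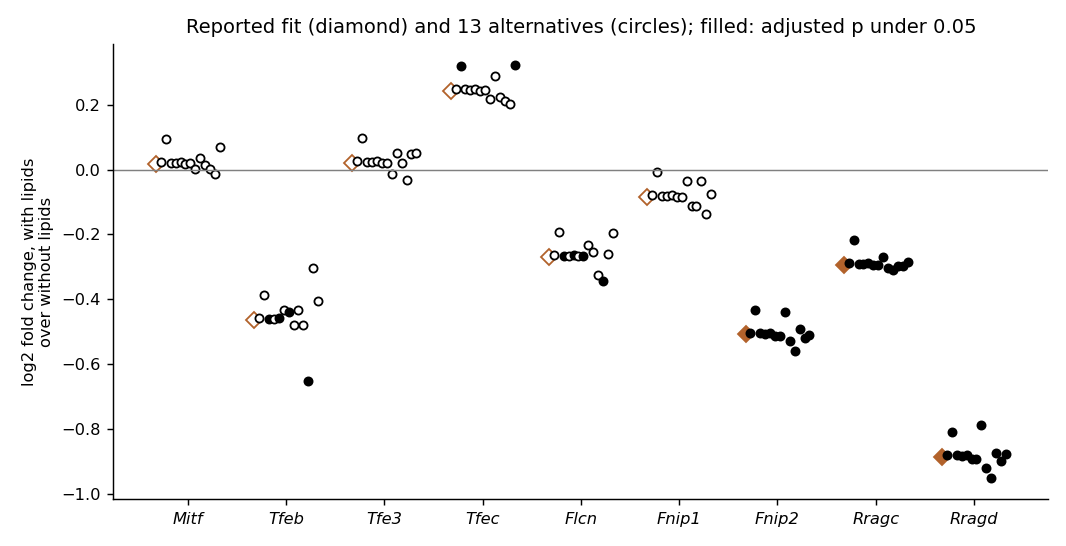
Log2 fold change of each of the 9 genes, with lipids over without lipids (vertical axis), in the reported fit (diamond) and in 13 alternatives (circles), filled where the adjusted p was under 0.05. Rragd stays between -0.95 and -0.79, Fnip2 between -0.56 and -0.43 and Rragc between -0.31 and -0.22, all filled, and Tfeb spreads most, from -0.65 to -0.30.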

How the data were processed

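RNA sequencing of poly(A) libraries made with a stranded kit gave 6 libraries, 3 per group. The authors deposited raw counts per Ensembl gene. Per the submitters' processing notes, the build GRCm38.p4 was named along with DESeq2, HTSeq and TopHat2 2.1.0, with no role stated. Strand setting and annotation release are not given in those sources. Symbols, positions and exon lengths came from GENCODE release M21 (GRCm38), where 46005 identifiers matched and 598, with 0.161% to 0.178% of counts, did not and stayed in the tables fitted. No row lacked a gene.

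Groups came from sample titles. Genes were kept by filterByExpr (minimum count 10, minimum total 15), scaled by TMM and tested with edgeR 4.0.16 in R 4.3.3 by a two-sided quasi-likelihood F test, with Benjamini-Hochberg adjustment over 12767 genes. SE came from the F statistic and 95% intervals, not adjusted for many tests, from its degrees of freedom. CPM used the kept counts and TMM factors. Exact permutation tests used SciPy 1.17.1. Profiles were compared as log2(CPM + 0.5). Named genes were the 9, up to 4 called genes of each list by smallest p, the markers, and the 2 nearest profiles of each called member. Which of these are given per library was chosen after their values were seen. In counts simulated for the comparison with lipids over without lipids, over 12767 genes, the fit recovered 40% of 50 genes changed 1.25-fold, 76% at 1.5-fold, 90% at 2-fold and 94% at 4-fold, with 9 false calls among 159. Alternatives were median-of-ratios scaling, library totals, no filter, 1 CPM in 3 libraries, DESeq2 1.42.0, limma-voom (limma 3.58.1), the replicate number as a block and each library left out. The members and lists were chosen with earlier results of these data known.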

Additional observations from a re-analysis of the deposited data

How the results depend on the processing

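Rragd, Fnip2 and Rragc kept their direction and their call in all 13 alternative fits, with adjusted p-values of at most 0.00142, 0.00607 and 0.0381. Mitf and Tfe3 were called in none, and their near-zero values changed sign when a library was left out (Mitf -0.01267 to 0.0708, Tfe3 -0.0325 to 0.05239, with Tfe3 also at -0.01266). Of the 9 genes, 5 were lower with no filter, with DESeq2 and with the replicate block, where Tfeb and Flcn were added (adjusted p = 0.0361 and 0.0219 with the block), and 1 was higher with library totals. Leaving out a library gave 3 to 5 lower and 0 to 1 higher. Over all genes, 585 were higher and 877 lower; library totals gave 1241 higher, no filter 1009 higher, and leaving out a library 219 to 1566 higher and 423 to 1975 lower. Among the 65 nutrient-sensing genes library totals gave 2 lower, and leaving out a library 0 to 7 higher and 0 to 18 lower. Leaving out a library gave 19 to 31 CLEAR targets lower. Fewer libraries leave fewer degrees of freedom, and why these counts moved was not tested. With library totals the median of all genes was 0.07. Dividing by mean transcript length moved the shares of Mitf to 31.65% with lipids and 30.75% without lipids. It moved those of Tfeb to 13.21% with lipids and 17.69% without lipids. The ratio differences cannot change with the length used, which is the same in every library. Ratio levels did change. In replicate 1 with lipids, Rragd for every 100 of Rragc went from 6.12 to 3.66, and Fnip2 for every 100 of Fnip1 from 283 to 476. Deviations of same-numbered libraries from their group means had correlations of -0.0141, -0.0874 and 0.176, against -0.13 to 0.155 for the other combinations. Deviations around means of 3 libraries cannot settle whether the replicate numbers pair the libraries. The block moved the counts over all genes to 715 higher and 937 lower. Not every library correlated best with its own number. Each of the 9 genes had 407 or more counts per library, and whether depth or the spread between libraries limits them more was not tested. No exact test of a ratio can go below 0.1 here.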
